A study of Sus scrofa with 4 samples.

Results

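The genes described here are 10 members of the fibroblast growth factor (FGF) family in porcine fetal fibroblasts: the ligands FGF1, FGF2, FGF5, FGF7, FGF9, FGF10 and FGF18 and the receptors FGFR1, FGFR2 and FGFR3. They and the lists of related genes below were chosen by symbol, with earlier results of these data known. All 10 were found among the 35670 genes listed in the count files. Of these 10, 8 carried enough reads to be tested, 5 ligands and 3 receptors. RNA was sequenced from 4 libraries. In 2 libraries the cells carried the genotype label BRG1-overexpressed, BRG1 being an ATPase that drives BAF (SWI/SNF) chromatin remodellers. In the 2 control libraries the genotype label was WT. All 4 came from the fibroblast line PFFs, derived from skin, and all cells had been starved of serum. Every sample title includes pTK-642, an unexplained name, so whether the controls hold an empty vector is not known. Neither the species nor the promoter of the introduced BRG1 sequence is stated in the labels. Whether libraries of 1 group came from different cultures is also unstated, so the spread behind each p-value may be technical.

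FGFs are secreted signalling proteins that bind heparan sulfate chains at the cell surface and, together with them, join and activate receptor tyrosine kinases. The receptors act through the adaptor FRS2 on the RAS and ERK kinase cascade, which in turn induces its own inhibitors, such as Sprouty proteins and the phosphatase DUSP6. In skin and in many developing organs, mesenchymal cells make FGF7 and FGF10, which act on a splice form of FGFR2 in the neighbouring epithelium, while fibroblasts themselves carry receptor forms that answer FGF2.

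Gene counts summed to between 34486400 and 38126860 reads per library, and levels are given as CPM, the usual scaling of counts to library size, here with TMM factors. SMARCA4, which encodes BRG1, did not check the label: it averaged 161 ± 2.82 CPM in BRG1-labelled libraries and 166 ± 17.1 CPM in controls (SD, n = 2 each; log2 fold change -0.04 ± 0.11 SE; adjusted p = 0.765), a value that lay between -0.15 and 0.048 when single libraries were left out and passed as lower without control 1 (adjusted p = 0.0251). Directions below are therefore those of the libraries labelled BRG1. The share of reads that fell outside genes was 10.3% and 10.5% in BRG1-labelled libraries and 6.11% and 7.34% in controls, and its part in the results was not tested. Of 8 fibroblast markers tested, 6 rose, 0 fell and 2 did not pass, where over all genes tested 21.0% rose and 23.6% fell. The 2 that did not pass, COL3A1 and VIM, had log2 fold changes of -0.21 and -0.27 (adjusted p = 0.180 and 0.0712). PDGFRA passed close to the threshold (adjusted p = 0.0476). The summed level of the list was 35104 and 35159 CPM in BRG1-labelled libraries, against 24308 and 27468 CPM in controls. Among markers of other cells, KRT5, KRT1, TEK, PTPRC, MYOD1 and PAX7 had no read in any library. Pericyte and smooth muscle markers summed to 99.5 and 100.1 CPM in BRG1-labelled libraries, against 44.6 and 56.1 CPM in controls, and 3 of 5 tested rose. Endothelial markers summed to 8.51 and 9.24 CPM in BRG1-labelled libraries, against 6.20 and 5.20 CPM in controls, and 1 of 4 tested rose. That was PECAM1, at 6.30 and 7.05 CPM in BRG1-labelled libraries, against 2.48 and 3.24 CPM in controls. VWF went the other way without passing (log2 fold change -1.28; adjusted p = 0.0561). TIE1 and CLDN5, at 1.51 and 0.32, did not pass either (adjusted p = 0.237 and 0.642). Epithelial markers summed to 2.88 and 4.41 CPM in BRG1-labelled libraries, against 2.83 and 3.18 CPM in controls. Of 2 tested, EPCAM was called lower, with 3 and 1 reads in BRG1-labelled libraries against 14 and 20 in controls. EPCAM reached the minimum count only in the controls. CDH1, ESRP1 and ESRP2, too low to be tested, had more reads in the BRG1-labelled libraries. CDH1 had 2 and 33 reads in BRG1-labelled libraries 1 and 2, against 0 and 0 in controls. Markers of blood cells summed to at most 4.83 CPM, those of melanocytes to at most 0.571 CPM and those of myoblasts to at most 1.04 CPM in any library, with no call among the 4 tested. Their part in the results was not tested, and in bulk RNA fewer cells of a type cannot be told apart from less RNA per cell.

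In the libraries labelled BRG1, the ligand FGF2 and the receptors FGFR1 and FGFR2 rose by 1.43-fold to 1.61-fold, and the ligands FGF10 and FGF1 fell. Thus 3 of the 8 tested members passed as higher, against 21.0% of all 14617 genes tested, and 2 passed as lower, against 23.6%. In either direction 5 of 8 passed, against 44.6% of all genes, so passing the test by itself is not particular to these genes. The 2 groups of libraries did not overlap in 7 of the 8, as in 73.2% of all genes tested. FGF1 reached the minimum count in both controls and in BRG1-labelled library 2 (11 reads), but not in BRG1-labelled library 1 (4 reads). FGF9 reached it only in the BRG1-labelled libraries. The inclusion of each gene thus leaned on the group in which it was higher. Without any single library 1 member fell, since the call of FGF1 was lost each time, and without control 1 the number of rises became 4, since FGF7 passed.

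**Figure D1:**
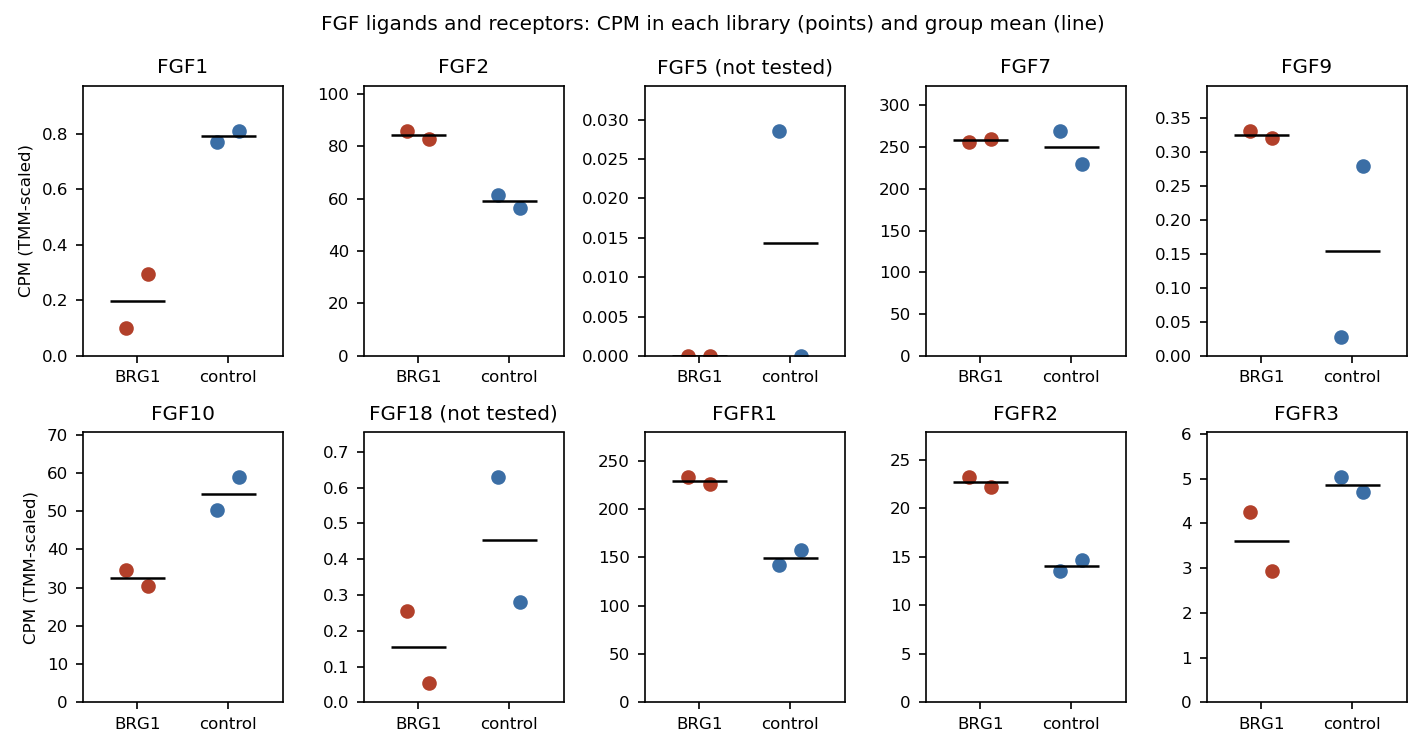
Level of each of the 10 genes in TMM-scaled CPM (vertical axes, each from 0) in BRG1-labelled libraries (red, left) and controls (blue, right); points are libraries, lines are means of 2. FGF2, FGFR1 and FGFR2 are higher and FGF10 and FGF1 lower in both BRG1-labelled libraries than in both controls, while the FGF7 points overlap.

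FGF2, or basic FGF, is a broad mitogen of fibroblasts that leaves cells without a classical signal peptide. The gene (ENSSSCG00000036213) lies on chromosome 8 of Sscrofa11.1, from 101278877 to 101344084. It stood at 85.8 and 82.6 CPM in BRG1-labelled libraries 1 and 2, against 61.4 and 56.5 CPM in controls 1 and 2. Both BRG1-labelled libraries lay above both controls, and the gap exceeded the spread within either group. The means were 84.2 ± 2.24 CPM in BRG1-labelled libraries and 59.0 ± 3.44 CPM in controls (SD, n = 2 each), a log2 fold change of 0.51 ± 0.10 (SE; 95% interval 0.29 to 0.73; adjusted p = 0.000888). The fold was 1.43, with an interval from 1.23 to 1.66.

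FGF10 is a mesenchymal ligand needed in mice for limb and lung outgrowth. It lies on chromosome 16 (28695465 to 28779953; ENSSSCG00000016878). It stood at 34.6 and 30.4 CPM in BRG1-labelled libraries 1 and 2, against 50.3 and 58.8 CPM in controls 1 and 2, from 1358, 1138, 1760 and 1888 reads. Both BRG1-labelled libraries lay below both controls. FGF10 fell to 0.596 of the control level (95% interval 0.498 to 0.714), with means of 32.5 ± 2.98 CPM in BRG1-labelled libraries and 54.5 ± 6.02 CPM in controls (SD, n = 2 each; log2 fold change -0.75 ± 0.12 SE; adjusted p = 0.000165).

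FGF1, or acidic FGF, binds all FGF receptors and, like FGF2, lacks a signal peptide. It lies on chromosome 2 (144133846 to 144241345; ENSSSCG00000024954). Only 4 and 11 reads fell on it in BRG1-labelled libraries 1 and 2, against 27 and 26 reads in controls 1 and 2, or 0.102 and 0.294 CPM against 0.771 and 0.809 CPM. Both BRG1-labelled libraries were lower, and they differed from each other more than the controls did. The log2 fold change was -1.99 ± 0.78 (SE; 95% interval -3.66 to -0.35) and its adjusted p of 0.0476 lay just inside the threshold. The ratio of summed reads, scaled by library, was 0.248 with an exact interval from 0.130 to 0.446 that covers counting error only. The call was lost in 9 of 13 alternative settings, among them DESeq2 (adjusted p = 0.0616), no filter on low counts (0.0733) and each library left out in turn (0.0850 to 0.363), while the direction stayed negative in all 13.

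FGF7, or keratinocyte growth factor, belongs to the same subfamily as FGF10. It lies on chromosome 1 (122215878 to 122278705; ENSSSCG00000056997). It stood at 256 and 260 CPM in BRG1-labelled libraries 1 and 2, against 269 and 230 CPM in controls 1 and 2. The BRG1-labelled values lay between those of the controls, which differed from each other more than the group means did. The means were 258 ± 2.84 CPM in BRG1-labelled libraries and 250 ± 27.7 CPM in controls (SD, n = 2 each), a log2 fold change of 0.05 ± 0.11 (SE; adjusted p = 0.757) whose 95% interval, 0.881-fold to 1.21-fold, leaves room for a small change in either direction. Its value depended on the control used: it was 0.16 without control 1, where it passed (adjusted p = 0.00755), and -0.079 without control 2 (adjusted p = 0.195). With scaling by library size alone it was 0.27 (adjusted p = 0.0477).

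FGF9, FGF18 and FGF5 were at or near the limit of detection. FGF9, which signals between epithelium and mesenchyme in the developing lung and gonad of mice, had 13 and 12 reads in BRG1-labelled libraries 1 and 2, against 1 and 9 reads in controls 1 and 2. Its log2 fold change of 1.09 ± 1.00 (SE) did not pass (adjusted p = 0.392), and it moved to 0.21 without control 1 and 3.35 without control 2. FGF18, a ligand known in mice for its part in cartilage and bone growth, had 10 and 2 reads in BRG1-labelled libraries 1 and 2, against 22 and 9 reads in controls 1 and 2. It was too low to be tested. FGF5, known in mice as an inhibitor of hair growth, had 0 reads in both BRG1-labelled libraries and 1 and 0 reads in controls 1 and 2. A count of 0 allows up to 3 reads, or 0.0765 and 0.0801 CPM in the BRG1-labelled libraries and 0.0934 CPM in control 2, so no difference was detectable at this depth. These limits cover counting error only.

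FGFR1 is the main FGF receptor of mesenchymal cells. Its gene (ENSSSCG00000015815) lies on chromosome 15, from 48053895 to 48106634. It stood at 233 and 226 CPM in BRG1-labelled libraries 1 and 2, against 142 and 157 CPM in controls 1 and 2. Both BRG1-labelled values lay well above the controls. The means were 229 ± 4.53 CPM in BRG1-labelled libraries and 150 ± 10.7 CPM in controls (SD, n = 2 each), which is a rise of 1.53-fold (95% interval 1.32 to 1.78; log2 fold change 0.61 ± 0.10 SE; adjusted p = 0.000194).

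FGFR2, whose splice forms give epithelial cells a receptor for FGF7 and FGF10 and mesenchymal cells a receptor for other ligands, rose as well. It lies on chromosome 14 (131183095 to 131285001; ENSSSCG00000010698). It stood at 23.2 and 22.2 CPM in BRG1-labelled libraries 1 and 2, against 13.5 and 14.7 CPM in controls 1 and 2. The groups did not overlap, and the gap between them was several times the distance between libraries of a group. The fold was 1.61 (95% interval 1.31 to 1.98), or 0.69 ± 0.14 (SE) on the log2 scale, with an adjusted p of 0.00103. Counts per gene do not tell the splice forms apart. The splicing factors ESRP1 and ESRP2, which favour the epithelial form, had 4 and 6 reads and 6 and 25 reads in BRG1-labelled libraries 1 and 2, against 1 and 0 reads and 1 and 1 read in controls 1 and 2, levels too low to be tested.

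FGFR3, a receptor known in mice and humans for restraining bone growth, did not pass. It lies on chromosome 8 (879151 to 894968; ENSSSCG00000030827) and stood at 4.26 and 2.94 CPM in BRG1-labelled libraries 1 and 2, against 5.03 and 4.70 CPM in controls 1 and 2. Both BRG1-labelled values were below the controls, but they lay further apart from each other than library 1 lay from control 2. The log2 fold change was -0.43 ± 0.26 (SE; 95% interval -0.99 to 0.13; adjusted p = 0.195), and it ranged from -0.72 to -0.20 with a library left out. Its interval, 0.502-fold to 1.09-fold, does not overlap those of FGFR1 and FGFR2. FGFR4, the remaining receptor kinase of the family, had 2 and 0 reads in BRG1-labelled libraries 1 and 2, against 4 and 6 reads in controls 1 and 2.

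**Figure D2:**
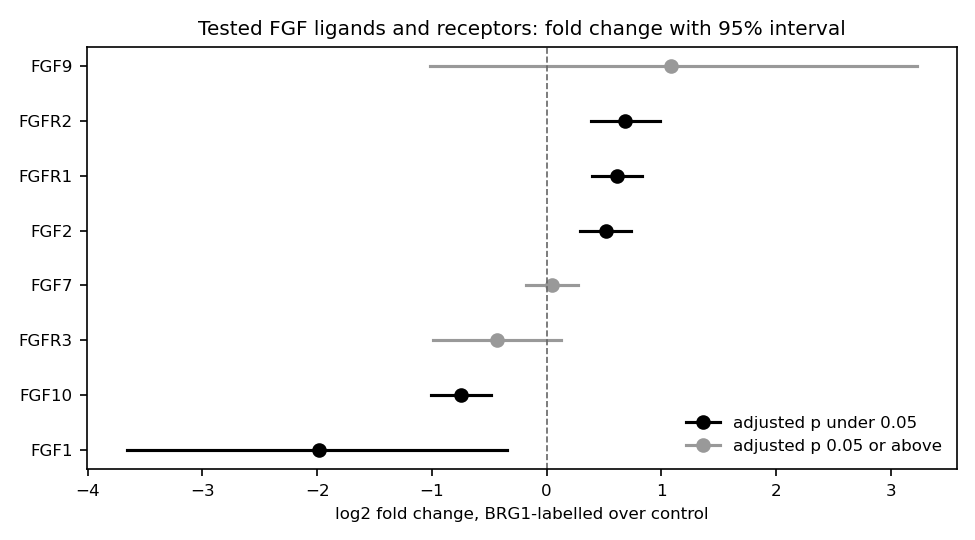
Log2 fold change of the BRG1-labelled libraries over the controls for the 8 tested genes (points) with 95% intervals (lines), black where the adjusted p was under 0.05. The intervals of FGF2, FGFR1 and FGFR2 lie above 0 and those of FGF10 and FGF1 below it, while FGF1 and FGF9, with few reads, have the widest intervals.

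Ratios of reads between members of the same library do not depend on how libraries are scaled. For 9 pairs, chosen after the values of the members were seen, such ratios were compared between groups. They depend on transcript length, so only their change between libraries is read, and an exact permutation test of 2 against 2 libraries cannot go below p = 0.333. FGF2 had 2.48 and 2.72 reads per FGF10 read in BRG1-labelled libraries 1 and 2, against 1.22 and 0.962 in controls 1 and 2. That ratio was 2.40-fold higher in the BRG1-labelled libraries, without overlap (exact permutation p = 0.333, two-sided). FGF7 had 7.40 and 8.56 reads per FGF10 read in BRG1-labelled libraries 1 and 2, against 5.36 and 3.92 in controls 1 and 2. So the ratio of the subfamily partners shifted toward FGF7 in both BRG1-labelled libraries, by 1.74-fold. FGF2 had 0.335 and 0.318 reads per FGF7 read in BRG1-labelled libraries, against 0.228 and 0.246 in controls, and FGF1 had 0.00119 and 0.00355 reads per FGF2 read, against 0.0126 and 0.0143.

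Among receptors, the ratio of FGFR1 to FGFR2 reads stood at 10.03 and 10.19 in BRG1-labelled libraries 1 and 2, against 10.50 and 10.71 in controls 1 and 2. It was lower in both BRG1-labelled libraries than in either control, by a mean log2 difference of -0.07, which lay between -0.083 and -0.055 without single libraries. That range does not cover counting error, which was not estimated for this ratio. FGFR2 had 910 and 831 reads in BRG1-labelled libraries 1 and 2, against 474 and 472 in controls 1 and 2. Reads of FGFR1 per FGFR3 read stood at 54.6 and 77.0 in BRG1-labelled libraries, against 28.3 and 33.5 in controls. For FGFR2 per FGFR3 they stood at 5.45 and 7.55, against 2.69 and 3.13. Both ratios were higher in each BRG1-labelled library than in either control, by 2.11-fold and 2.21-fold. FGFR2, the receptor of FGF10 in its epithelial form, had 0.670 and 0.730 reads per FGF10 read in BRG1-labelled libraries, against 0.269 and 0.25 in controls. This ratio was 2.70-fold higher in the BRG1-labelled libraries, and its values without single libraries lay between 1.37 and 1.49 on the log2 scale. The ratio of FGFR1 to FGF2 reads overlapped between groups, at 2.71 and 2.74 in BRG1-labelled libraries against 2.32 and 2.78 in controls.

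**Figure D3:**
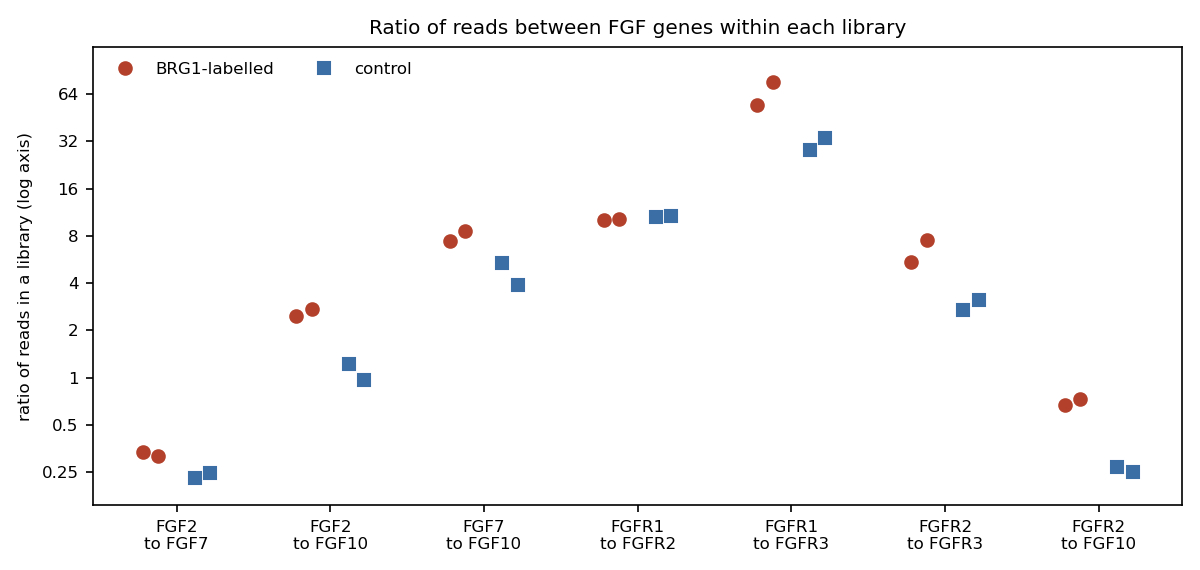
Ratio of reads between pairs of FGF genes within each library (vertical axis, log scale), BRG1-labelled libraries as red circles left of controls as blue squares. FGF1 to FGF2 and FGFR1 to FGF2 are not drawn, and the latter overlapped between groups. FGF2 to FGF10, FGF7 to FGF10 and FGFR2 to FGF10 are higher in both BRG1-labelled libraries than in both controls, while FGFR1 to FGFR2 lies between 10.03 and 10.71 in all 4.

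Position and gene structure were examined for reads that members could share with other genes. In the RefSeq table of the same build, NUDT6, which in rats and humans is read from the strand opposite FGF2, overlaps FGF2 over 23884 bases, and FAM227B overlaps all 62828 bases of FGF7. Only 53 and 41 reads were listed for NUDT6 in BRG1-labelled libraries 1 and 2, against 32 and 35 reads in controls 1 and 2. FAM227B had 34 and 61 reads in BRG1-labelled libraries, against 67 and 29 in controls. These counts were at most 1.93% of those of FGF2 and 0.710% of those of FGF7 in any library. The strand setting of the counting is not given, so reads of overlapping genes cannot be told apart. Noncoding genes without a matching row overlap FGF2, FGF5 and FGF10.

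Nearest neighbours with a counted row, examined after the values of the members were seen, differed from gene to gene. BBS12, on one side of FGF2, had a log2 fold change of 0.38 (adjusted p = 0.185). SPATA5, on the other, had 0.00088 (adjusted p = 0.998). LETM2, 4.01 kb from FGFR1, rose by 1.47 on the log2 scale (adjusted p = 0.00694), from 135 and 196 reads in BRG1-labelled libraries against 78 and 28 in controls. It ranged from 0.94 to 2.30 without single libraries and missed the threshold without BRG1-labelled library 2 (adjusted p = 0.0512). Neither neighbour of FGF1 passed, SPRY4 at -0.26 (adjusted p = 0.0880) and ARHGAP26 at 0.90 (adjusted p = 0.230). GALK2, beside FGF7, had 0.36 (adjusted p = 0.0540). DTWD1, on the other side of FGF7 at 76.6 kb, rose by 0.63 (adjusted p = 0.00499), though not without BRG1-labelled library 2 (adjusted p = 0.0936). ATE1 beside FGFR2, LETM1 beside FGFR3 and NPM1 beside FGF18 had values of 0.26, -0.23 and -0.20 that did not pass.

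Among the 11328 tested genes with a span in RefSeq, the log2 fold change increased with the stretch of genome a gene spans, its median running from -0.35 in the tenth of genes with the shortest spans to 0.29 in the tenth with the longest. Genes of like span had medians of 0.13 around FGF2, FGF7 and FGF10, 0.06 around FGFR1, 0.21 around FGFR2 and FGF1, -0.14 around FGFR3 and -0.04 around FGF9. With each library's trend with span removed, FGF2 stood at 0.41, FGFR1 at 0.54, FGFR2 at 0.51 and FGF10 at -0.90 on the log2 scale, and all 4 still passed (adjusted p = 0.00314, 0.000168, 0.00536 and 8.25e-06).

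Other members of the family mostly did not pass or were barely read. Of 16 further symbols, 15 had a row, 6 of these had no read in any library and 6 were tested. Of the tested, 0 rose, 1 fell and 5 did not pass, where over all genes 21.0% rose and 23.6% fell. The list had a median log2 fold change of 0.04, beside 0.02 for all genes tested. That median was -0.20 without control 1 and 0.28 with at least 1 CPM required in 2 libraries. FGF16, a secreted ligand of the FGF9 subfamily, was the one that fell, with 1 and 1 read in BRG1-labelled libraries against 17 and 10 reads in controls 1 and 2. The ratio of its summed reads was 0.0649, with an exact interval from 0.00747 to 0.258 for counting error only (adjusted p = 0.0134). It reached the minimum count only in the controls, the group where it was higher, so its inclusion leaned on that group. The call was lost without either BRG1-labelled library (log2 fold change -3.73 without library 1 and -3.80 without library 2). Without control 1 FGF16 did not reach the minimum total of 15 reads. FGF11 and FGF12, which stay inside cells, had log2 fold changes of -0.18 ± 0.14 and 0.50 ± 0.36 (SE; adjusted p = 0.298 and 0.283). FGF19 and FGF21, which circulate as hormones, had 0.26 ± 0.31 and 0.45 ± 0.48 (SE; adjusted p = 0.523 and 0.473). Their controls disagreed: FGF19 stood at 5.45 and 4.73 CPM in BRG1-labelled libraries, against 2.71 and 5.82 CPM in controls 1 and 2, and FGF21 at 2.22 and 1.98 CPM, against 0.742 and 2.33 CPM. Without control 2 both passed as higher, at 0.89 and 1.48 on the log2 scale (adjusted p = 0.00625 and 0.0147), and without control 1 both values were negative, at -0.20 and -0.16. FGF22 had -0.32 ± 0.37 (SE; adjusted p = 0.504).

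Calls among carriers and editors of heparan sulfate, the co-receptor of FGFs, were all rises. Other tested proteins that bind FGFs or their receptors had no call. The joint list had 21 symbols, of which 17 had a row and 14 were tested. Of the tested, 8 rose, 0 fell and 6 did not pass, where over all genes 21.0% rose and 23.6% fell. The median was 0.46, beside 0.02 for all genes tested, and 0.14 with no filter on low counts. Without single libraries the rises numbered 6 to 8, and without control 1 there was also 1 fall. SDC2, a cell surface proteoglycan, stood at 303 and 284 CPM in BRG1-labelled libraries, against 60.2 and 56.9 CPM in controls (log2 fold change 2.32 ± 0.11 SE; adjusted p = 1.24e-09). SULF2, an extracellular enzyme that removes sulfate groups from heparan sulfate, stood at 475 and 479 CPM in BRG1-labelled libraries, against 83.4 and 103 CPM in controls (2.36 ± 0.12; adjusted p = 2.25e-09). Its relative SULF1 averaged 541 ± 3.10 CPM in BRG1-labelled libraries and 296 ± 67.3 CPM in controls. For each of these genes both BRG1-labelled libraries lay above both controls.

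The glypicans GPC3 and GPC4, which are anchored to the membrane by a lipid, rose by 2.21 ± 0.21 and 0.68 ± 0.11 on the log2 scale, and HSPG2, the basement membrane proteoglycan perlecan, rose by 1.17 ± 0.18 (SE; adjusted p = 7.76e-07, 0.000102 and 8.82e-05). FGFRL1, a receptor of the family without a kinase, had 0.09 ± 0.17 (SE; adjusted p = 0.689). Other binders tested were FLRT2, FLRT3 and KLB, at -0.33, 0.0022 and -0.36 (adjusted p = 0.0586, 0.992 and 0.667). Of the carriers, SDC1 at 0.17 and GPC6 at -0.22 did not pass (adjusted p = 0.291 and 0.687). FGFBP1 and FGFBP3, secreted carriers of FGFs, had 0 reads in both BRG1-labelled libraries, against 3 and 4 reads and 5 and 3 reads in controls 1 and 2, and were too low to be tested.

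Of 24 transducers inside the cell tested, 8 rose, 8 fell and 8 did not pass, where over all genes 21.0% rose and 23.6% fell. Their median of 0.04 lay between -0.02 and 0.11 without single libraries and was 0.27 when library size alone set the scale. The numbers rested on the libraries: there was 1 rise without BRG1-labelled library 1, there were 2 rises and 4 falls without library 2, and 2 rises with the trend with span removed. GAB1, a docking protein of receptor tyrosine kinases, averaged 55.7 ± 0.52 CPM in BRG1-labelled libraries and 34.7 ± 4.05 CPM in controls (log2 fold change 0.68 ± 0.12 SE; adjusted p = 0.000235). GRB2, the adaptor that brings SOS to RAS, averaged 78.0 ± 1.74 CPM in BRG1-labelled libraries and 128 ± 14.4 CPM in controls (-0.71 ± 0.11; adjusted p = 7.69e-05). The kinases ARAF, MAP2K2 and MAPK3, which lie in sequence in the ERK cascade, fell by 0.59, 0.66 and 0.52 on the log2 scale, and RPS6KA3, a kinase that ERK activates, fell by 0.51 (adjusted p = 0.000217, 0.000229, 0.000714 and 0.001). Without BRG1-labelled library 2, MAPK3 and RPS6KA3 missed the threshold (adjusted p = 0.0556 and 0.0717). The adaptors that link FGF receptors to this cascade, named after their values were seen, differed: FRS2 had 0.51 ± 0.17 and FRS3 -0.88 ± 0.32 (SE; adjusted p = 0.0248 and 0.0373). Neither call held in every setting: FRS2 missed the threshold without BRG1-labelled library 1 (0.28; adjusted p = 0.386) and FRS3 without control 2 or either BRG1-labelled library (adjusted p = 0.0599 to 0.210).

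Feedback inhibitors and targets of FGF and ERK signalling held calls in both directions, as did all genes (21.0% higher and 23.6% lower): of 19 tested, 6 rose, 8 fell and 5 did not pass. Their median of -0.26 was -0.38 without control 1, -0.15 without control 2, -0.10 with the span trend removed and -0.03 where library size alone set the scale. The falls numbered 5 without either BRG1-labelled library, and likewise 5 where library size alone set the scale, while 5 to 6 genes rose without single libraries. IL17RD, a membrane protein also called SEF that dampens FGF receptor signalling, stood at 47.4 and 49.9 CPM in BRG1-labelled libraries, against 6.71 and 8.53 CPM in controls (log2 fold change 2.68 ± 0.15 SE; adjusted p = 3.56e-09). DUSP6, the phosphatase of ERK in the cytoplasm, stood at 96.1 and 88.6 CPM in BRG1-labelled libraries, against 51.9 and 56.5 CPM in controls (0.77 ± 0.11; adjusted p = 3.19e-05). CCND1, cyclin D1, rose by 0.90 ± 0.13 (SE; adjusted p = 5.73e-05). Against these stood DUSP5, a nuclear phosphatase of ERK, at -1.20 ± 0.18, FOSL1, an AP-1 subunit, at -1.58 ± 0.12, and PHLDA1, an immediate early gene, at -0.76 ± 0.11 (SE; adjusted p = 8.60e-05, 6.41e-08 and 6.04e-05). The Sprouty genes, named after their values were seen, split as well, with SPRY1 at 0.54 ± 0.11 and SPRY2 at -0.66 ± 0.10 (SE; adjusted p = 0.000851 and 0.000113). SPRY1 missed the threshold with the trend with span removed (0.21; adjusted p = 0.105).

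**Figure D4:**
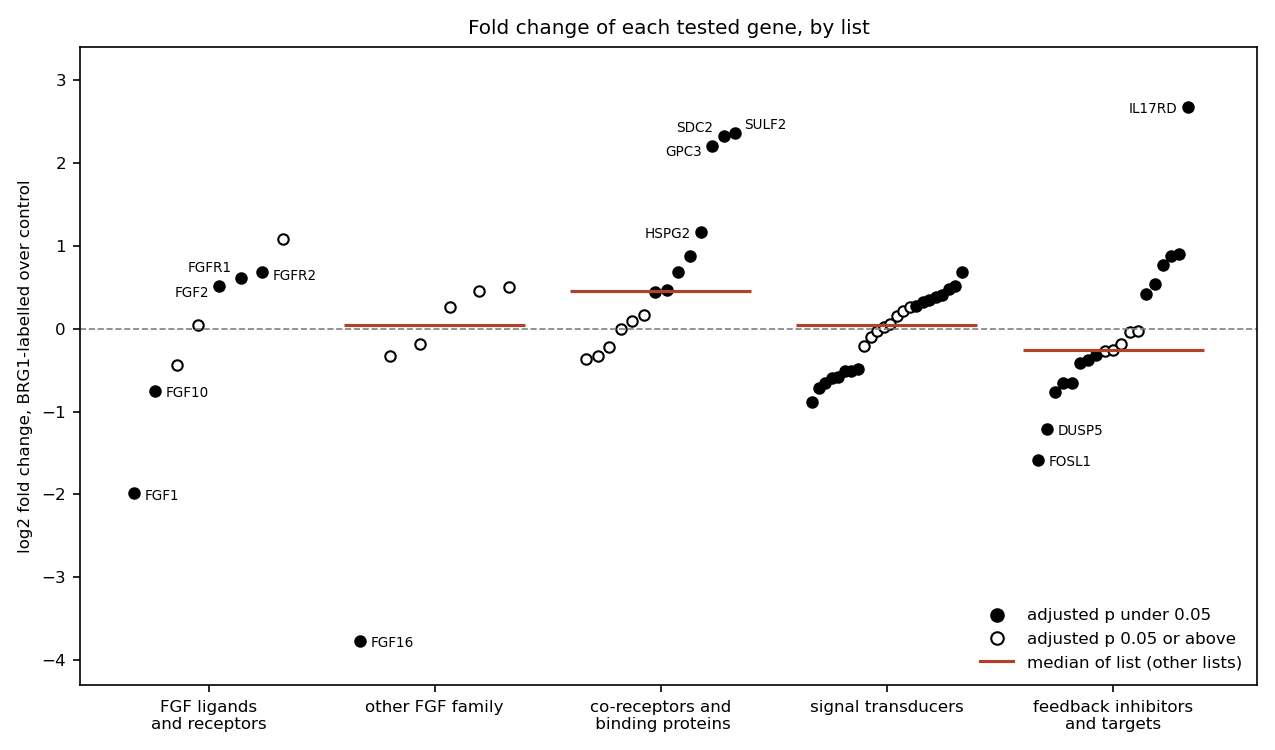
Log2 fold change, BRG1-labelled over control, of each tested gene in the FGF family and 4 lists of the pathway (columns), filled where the adjusted p was under 0.05; red lines are the medians of the 4 lists. All filled points of the co-receptor list lie above 0, led by SULF2 at 2.36 and SDC2 at 2.32, while transducers and feedback genes spread to both sides of 0.

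Profiles most like those of the members that rose and fell the most were sought among all tested genes with a symbol. The measure was the Euclidean distance of log2 CPM centred on each gene's mean over the 4 libraries. A small constant was added to every CPM before the logarithm was taken. Near FGFR2 lay TSPAN9 and ARHGAP32, at distances of 0.0241 and 0.0294. TSPAN9, a tetraspanin, stood at 32.8 and 31.6 CPM in BRG1-labelled libraries, against 19.0 and 21.0 CPM in controls. With the constant added, the nearest to FGF1 were BNC1, DOK3 and IFI35, at 0.0444, 0.221 and 0.223. The constant exceeded the level of FGF1 in BRG1-labelled library 1 (0.102 CPM), so it narrowed the differences of FGF1 between libraries. The closeness of BNC1 to FGF1 therefore depends on the constant, and which genes lie nearest without it was not tested. BNC1, a zinc finger protein, stood at 1.07 and 2.03 CPM in BRG1-labelled libraries 1 and 2, against 4.54 and 4.89 CPM in controls 1 and 2, so that library 1 was the lowest, as it was for FGF1. With 4 libraries in 2 groups, such likeness holds little beyond the size of the group difference.

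**Figure D5:**
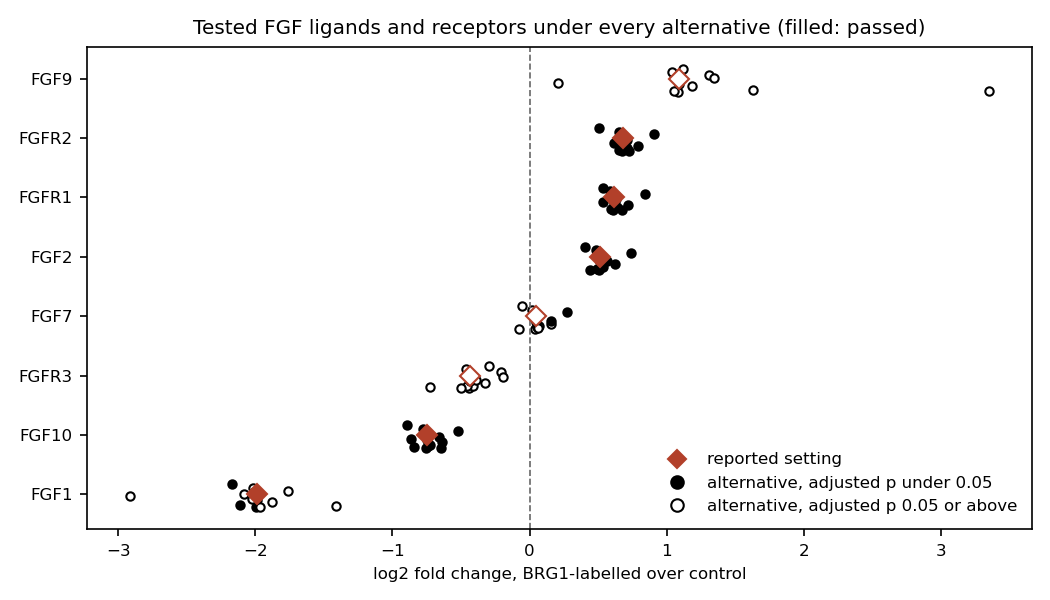
Log2 fold change of the 8 tested genes under the reported setting (red diamonds) and under up to 14 alternatives each (circles, spread vertically only for legibility), filled where the adjusted p was under 0.05. FGF2, FGFR1, FGFR2 and FGF10 stay filled throughout, FGF1 is mostly open, and FGF7 lies on both sides of 0.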

How the data were processed

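Each library has a deposited file of raw read counts for Ensembl genes. The submitters' processing notes name the build Sscrofa11.1 and, with no roles, the tools STAR, FastQC, Cufflinks, SAMtools, edgeR and DESeq2; the counter, its strand setting and the annotation release are not given in the sources used here. Trizol was used to extract total RNA, per the labels' protocols. Closing entries that name no gene (outside genes, ambiguous, not unique) made up 13.6% to 13.8% per BRG1-labelled library and 10.2% to 11.1% per control, and were left out of library sizes and tests. Symbols came from the files, and for 223 further genes from a gene name table.

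Fits used R 4.3.3 and edgeR 4.0.16: filterByExpr (minimum count 10, minimum total 15), TMM factors, the quasi-likelihood F test of group without robust estimation, and Benjamini-Hochberg adjustment over 14617 genes (threshold 0.05). The common biological coefficient of variation came to 0.113. Every adjusted p comes from this fit unless another is named. The standard error is the log2 fold change without prior count divided by the square root of F; reported changes use a prior count of 0.125. The fit was tested on simulated data with known changes before use. Those data took their dispersion from this same fit and changed only a small part of the genes, in random directions. They therefore could not test the scaling between libraries or the dispersion itself. Libraries of a group differed by more than counting noise, with chi-square per degree of freedom of 5.33 in BRG1-labelled libraries and 37.2 in controls.

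The members and lists were chosen with earlier results of these data known. Named genes are all members, SMARCA4, every tested further FGF gene, up to 6 genes of each other list with the smallest adjusted p, and for the members with the largest rise and fall that passed the 3 genes with the nearest profile, of which 1 is not reported here. Spans and coordinates come from RefSeq on this build; transcript lengths were not used, so levels of different genes are not compared. Sequences were not used here. Alternatives were other scalings and filters, DESeq2 1.42.0, limma-voom (limma 3.58.1), robust estimation, the replicate number as a block, removal of the trend with span, a stricter threshold, and each library left out; where that leaves 1 library in a group, it is assumed to vary like the other group.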

Additional observations from a re-analysis of the deposited data

How the results depend on the processing

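FGF2, FGF10, FGFR1 and FGFR2 kept their direction and passed in all 14 alternatives, with log2 fold changes from 0.41 to 0.74, -0.90 to -0.52, 0.54 to 0.84 and 0.51 to 0.91. The number of members that fell was 1 in place of 2, through loss of FGF1, with upper quartile scaling, library size alone, at least 1 CPM in 2 libraries (where FGF1 is not tested), no filter, DESeq2, the replicate block, an adjusted p of 0.01 and without any single library (1 to 1). Scaling by library size alone moved the median of all genes by 0.23 and upper quartile scaling by 0.11 (log2). Library size alone gave 4819 higher and 2140 lower calls over all genes, against 3068 and 3444 as reported; without single libraries the calls ranged from 1908 to 3673 higher and 2177 to 4321 lower. With upper quartile scaling 57.8% of calls were higher, against 47.1%. SMARCA4 turned to 0.061 with upper quartile scaling and 0.18 with library size alone, and ranged from -0.15 to 0.048 without single libraries. Its lowest value was -0.21, with the span trend removed (adjusted p = 0.0782). FGF7 was -0.057 with the span trend removed and -0.079 to 0.16 without single libraries, FGF11 was 0.044 with library size alone and 0.076 with the span trend removed, and FGF22 was 0.011 with the span trend removed. Without single libraries FGF19 ranged from -0.20 to 0.89, FGF21 from -0.16 to 1.48, FGFRL1 from -0.047 to 0.22 and the log2 ratio of FGFR1 to FGF2 from -0.032 to 0.23. Among further FGF genes 0 fell with at least 1 CPM in 2 libraries, with no filter and at an adjusted p of 0.01, and 0 to 1 fell and 0 to 2 rose without single libraries. Among co-receptors 1 fell with no filter, with the replicate block and with the span trend removed, and 0 to 1 without single libraries. Of transducers 2 rose with the span trend removed and 1 at an adjusted p of 0.01, and without single libraries 1 to 9 rose and 4 to 9 fell. Of feedback genes and targets 5 fell with library size alone, and 5 to 11 without single libraries. The cause of these shifts was not tested. The replicate numbers are not known to pair libraries, since the deviations of same-numbered libraries correlated at -0.04; with the block FGF1 was -2.08 (adjusted p = 0.0602). Depth limits FGF5, FGF9, FGF18, FGF1 and FGF16, with at most 27 reads in a library.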
